A study of Mus musculus with 6 samples.

Results

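Solute carriers are membrane proteins that move amino acids, sugars, metal ions, inorganic ions, nucleotides and vitamins across the plasma membrane and the membranes of organelles. Their transcripts were described here in mouse bone marrow-derived macrophages by a rule on name and level. A gene counted as a member when its symbol began with Slc followed by a family number, a letter and a member number, was not marked as a pseudogene, and had a mean estimated count of at least 50 over all 6 libraries. The rule gave 177 members of 57180 genes in the deposited table. Members were thus chosen by their mean count over both groups together, and the rule itself used no difference between the groups. The members and their classes were, however, chosen with earlier results of these data known. Of the 378 symbols that matched the name, 201 lay under the level and 78 of the 378 were at 0 in every library. The members nearest to the level had mean counts of 50.5 (Slc16a9) and 54.66 (Slc22a15), and the nearest genes left out had 48.5 (Slc18a2) and 47.83 (Slc15a2). Of the 177 members, 2 (Slc4a1ap and Slc7a6os) carry the name of a neighbouring or partner gene and are not transporters themselves.

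The cells came from the femurs and tibias of wild-type mice aged 6 to 8 weeks and were differentiated over 7 days with the growth factor M-CSF at 20 ng/mL. One group of 3 libraries received interleukin 4 (IL-4, 20 ng/mL) and the other group of 3 received IL-4 with calcitonin gene-related peptide (CGRP), both for 24 hours. IL-4 drives macrophages towards alternative activation, and CGRP is a neuropeptide of sensory nerve endings whose receptor raises cyclic AMP. IL-4 was present in both groups and no library without it was analysed here, so every comparison is of CGRP added to IL-4. The labels do not say whether the replicates came from separate mice or cultures, so the p-values rest on the spread between samples that may be technical replicates.

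Macrophages rely on several carrier families. Cationic amino acid carriers of the Slc7 family bring in arginine, the substrate of arginase in IL-4-treated cells, while the cystine/glutamate exchanger Slc7a11 supplies cystine for glutathione. Ferroportin (Slc40a1) and Slc11a1 move iron out of the cell and out of the phagosome, monocarboxylate carriers pass lactate and related acids, and the Slc25 family connects the mitochondrial matrix with the cytosol.

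Library totals ranged from 20088895 to 24060444 estimated counts, and the members held between 1.365% and 1.453% of them. CPM values below are counts per 1e+06 of the library total, scaled by the trimmed mean of M values (TMM). One library stood apart: on the first principal component, with 37.6% of the variance, IL-4+CGRP replicate 2 was at -0.17, between the IL-4 libraries (-25.97 to -11.22) and the other IL-4+CGRP libraries (21.98 and 27.05). Its deviations from its group mean correlated with those of IL-4 replicate 1 (r = 0.29 across genes, which are not independent replicates). Counts of changed genes are therefore also given without it. Macrophage markers summed to 14773.6 to 15027.4 CPM in the IL-4 libraries and 14823.2 to 15242.8 CPM in the IL-4+CGRP libraries, and all 8 were detected. One of these markers, the integrin chain Itgam, was higher past the threshold (410.9 to 427.8 CPM against 511.1 to 586.9 CPM, log2 fold change 0.41, adjusted p = 0.00122). The other macrophage markers did not pass and differed in sign. Lyz2, Csf1r and Mertk had log2 fold changes above 0. Adgre1 (-0.11, adjusted p = 0.19), C1qa (-0.16, adjusted p = 0.157), Cd68 and Fcgr1 had them below 0, and the groups of Adgre1 and C1qa did not overlap. Dendritic cell markers summed to 21.7 to 24.7 CPM against 29.1 to 30.9 CPM, with Ccr7 higher and Siglech lower past the threshold. Ccr7 made up most of these sums (18.2 to 21.4 CPM against 27.1 to 28.4 CPM). Zbtb46 (log2 fold change -0.10, adjusted p = 0.893) and Flt3 (0.16, adjusted p = 0.86) did not pass, so the sums mainly follow 1 gene. Stromal markers summed to 42.7 to 46.0 CPM against 47.7 to 53.9 CPM. The part of these cells in the results below was not tested, and in bulk RNA fewer cells of a type and less RNA per cell cannot be told apart.

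A fixed stretch of promoter is shown for the 3 changed members whose window held one of the motifs searched. Promoter sequences of 132 of the 177 members were found among RefSeq promoters (mouse build GRCm38.p6), each running from 250 bases before to 50 bases after a transcription start. Slc16a6 and Slc40a1 had no entry. Each line gives the 150 bases before the start, 5′ to 3′ on the strand of the gene, with motif matches in capitals.
Slc7a11: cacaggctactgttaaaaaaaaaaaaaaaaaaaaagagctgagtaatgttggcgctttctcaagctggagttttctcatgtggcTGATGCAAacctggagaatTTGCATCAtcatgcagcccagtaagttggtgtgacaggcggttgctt
Slc9a9: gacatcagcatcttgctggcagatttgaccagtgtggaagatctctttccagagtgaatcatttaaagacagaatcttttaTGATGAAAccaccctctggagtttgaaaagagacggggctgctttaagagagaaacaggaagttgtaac
Slc38a6: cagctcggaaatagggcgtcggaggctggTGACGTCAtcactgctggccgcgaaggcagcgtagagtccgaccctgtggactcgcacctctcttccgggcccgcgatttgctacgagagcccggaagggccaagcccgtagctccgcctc
The Slc7a11 stretch lies at chr3:50443614-50443763 on the minus strand, that of Slc9a9 at chr9:94669742-94669891 on the plus strand and that of Slc38a6 at chr12:73286698-73286847 on the plus strand. Slc38a6 held the palindromic cyclic AMP response element TGACGTCA, the site of CREB, starting at position -121 from the start. Slc7a11 held the amino acid response element TGATGNAA, a site of ATF4, at -66 and again on the opposite strand at -47. Slc9a9 held it once, at -69. Both strands were searched. The cyclic AMP response element occurred in 1.79% of all 32851 promoter windows and in 3 of the 175 windows of members. The amino acid response element occurred in 3.97% of all windows and in 7 of the 175. The antioxidant response element TGACNNNGC occurred in 12.4% of all windows and in 37 of the 175 windows of members. The CLEAR element TCACGTGA of lysosomal genes occurred in 0.974% and in 4 of the 175. None of the 6 windows of changed members held either of these, and no window shown held more than 1 kind of motif. These matches describe letters in a window and say nothing of binding.

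The effect of CGRP on the carriers was asked first over all members. Of the 177, 6 rose and 2 fell (adjusted p under 0.05, edgeR's quasi-likelihood test with Benjamini-Hochberg adjustment over 13260 tested genes). With library totals alone as the scaling the split was 9 to 1, and with each library's gene length trend removed it was 12 to 7 (6.46% of all tested genes then passed, 3.57% higher and 2.9% lower). The 8 changed members were 4.52% of the members, near the 3.85% of all tested genes that passed (511 genes: 307 higher, 2.32%, and 204 lower, 1.54%) and the 4.3% among tested genes with a mean count of at least 50. No member changed 2-fold. Of all tested genes 0.581% passed with at least 2-fold, and of those with a mean count of at least 50 only 0.278% did. The median log2 fold change of the members (IL-4+CGRP minus IL-4, here and below) was 0.01 and their median absolute change 0.09, beside -0.004 and 0.11 over all tested genes. Among tested genes with a mean count of at least 50 these were -0.01 and 0.09. A log2 fold change above 0 was seen in 93 members (52.5%), in 49.2% of all tested genes and in 46.8% of those with a mean count of at least 50. The groups of 3 libraries did not overlap for 57 members (32.2%), 32 higher and 25 lower with CGRP. Over all tested genes this share was 21% (11.1% higher and 9.92% lower), and it was 22.2% among those with a mean count of at least 50. Without IL-4+CGRP replicate 2, 20 members were higher and 9 lower (16.4%), beside 13.8% of all tested genes (6.78% higher and 7.04% lower), and all 8 members called with 6 libraries were among them. The shares of all tested genes without IL-4+CGRP replicate 2 stand behind every class and list count given below without it. Leaving out any other library instead left 1 to 3 members called.

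**Figure D1:**
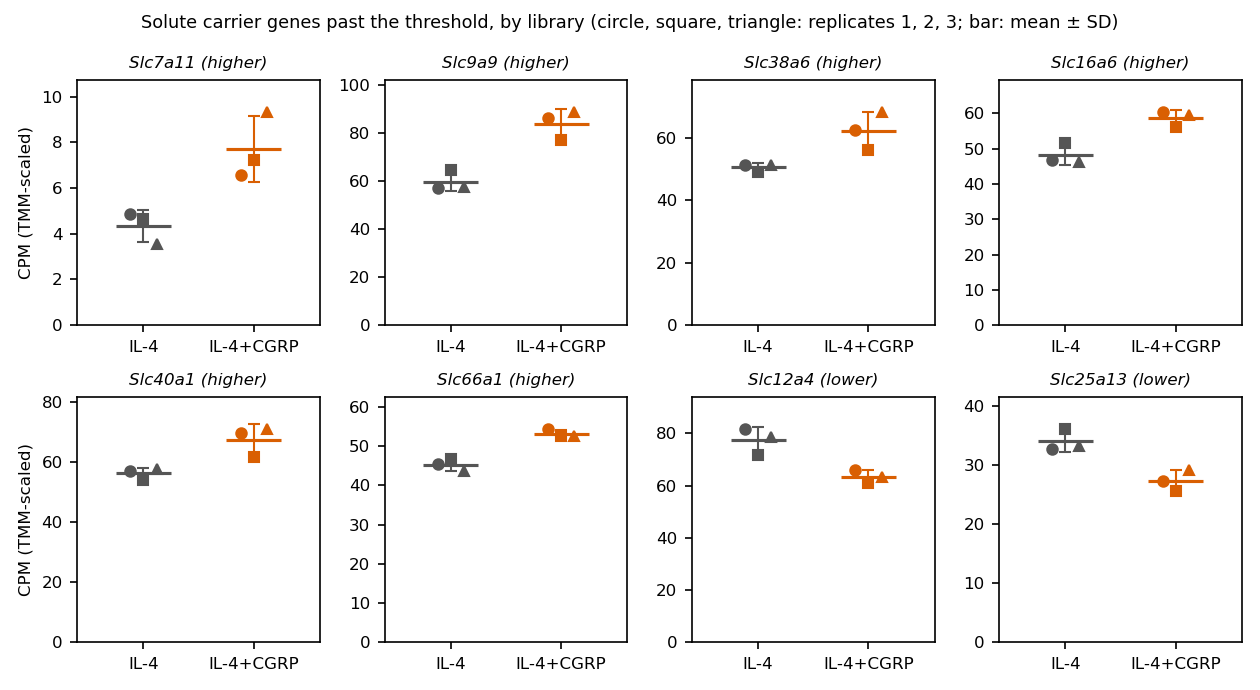
CPM (TMM-scaled, axes from 0) of the 8 solute carrier genes past the threshold in each of the 6 libraries, with symbols for replicates 1, 2 and 3 and bars for the mean and SD of each group of 3. In every panel the groups do not overlap, and the gap relative to the level is widest for Slc7a11 (1.78-fold) and Slc9a9 (1.40-fold).

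Of the 22 amino acid carriers 3 rose, 19 did not pass the test and none fell. DESeq2 called 3 higher and limma-voom 1 higher, neither with any lower, and 7 had an unadjusted p under 0.05 (15.8% of all tested genes had). The class median was a log2 fold change of 0.09, with 16 of 22 above 0. Slc7a11, the cystine/glutamate exchanger, had the widest fold change of the 8 changed members, 1.78-fold, at a low level. It stood at 4.86, 4.65 and 3.54 CPM with IL-4 and at 6.56, 7.25 and 9.33 CPM with IL-4+CGRP. All CGRP libraries lay above all IL-4 libraries (4.35 ± 0.705 against 7.71 ± 1.44 CPM, mean ± SD, n = 3 each; log2 fold change 0.83 ± 0.17 SE, adjusted p = 0.0172). Slc7a11 missed the threshold without IL-4 replicate 2 (adjusted p = 0.0833), IL-4 replicate 3 (0.102) or IL-4+CGRP replicate 3 (0.0667).

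Slc38a6, a member of the sodium-coupled neutral amino acid transporter family, had 51.4, 49.1 and 51.3 CPM with IL-4 and 62.6, 56.1 and 68.4 CPM with IL-4+CGRP. The IL-4 libraries were close together and the CGRP libraries spread more widely above them (log2 fold change 0.30 ± 0.07, 1.23-fold, adjusted p = 0.0405). Its call ended without any 1 library other than IL-4+CGRP replicate 2 (adjusted p from 0.126 to 0.208), with limma-voom (0.0759), and without robust dispersion estimates (0.0626). Slc66a1 (PQLC2), which exports cationic amino acids from the lysosome, had 45.4, 46.6 and 43.6 CPM with IL-4 and 54.3, 52.6 and 52.6 CPM with IL-4+CGRP. The groups were apart and the CGRP libraries nearly level (log2 fold change 0.23 ± 0.06, 1.18-fold, adjusted p = 0.0453). Its call likewise ended without any 1 library other than IL-4+CGRP replicate 2 (adjusted p from 0.115 to 0.239), and with DESeq2 (0.122) or limma-voom (0.0578). The remaining Slc66 members, classed here with the vesicular, peptide and lysosomal carriers, had the opposite sign and did not pass. Slc66a3 had a log2 fold change of -0.16 (adjusted p = 0.164) and Slc66a2 of -0.15 (adjusted p = 0.311), with no overlap between groups.

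All 7 Slc7 transporters at or above the level of 50 counts had a log2 fold change above 0 (median 0.16), and of these only Slc7a11 passed the test. Under that level, Slc7a4 had a log2 fold change of -0.28 (adjusted p = 0.702). Slc7a2, the cationic amino acid transporter CAT2, was nearest to it. It had 234.9, 232.2 and 234.7 CPM with IL-4 and 275.0, 254.1 and 275.4 CPM with IL-4+CGRP. The IL-4 libraries were nearly identical and all CGRP libraries lay above them, replicate 2 the least (log2 fold change 0.20 ± 0.05, adjusted p = 0.0502). Its adjusted p was 0.000914 without that replicate, and at most 0.251 with any other library left out. With all libraries kept, Slc7a2 passed with DESeq2 size factors (adjusted p = 0.0489), library totals alone (0.0374) and upper quartile factors (0.0419). It also passed with a filter at a mean count of 50 (0.0457), no filter (0.0168) and the length trend removed (0.00871). Slc7a2 missed the threshold with the DESeq2 test, limma-voom, non-robust dispersions and the replicate number as a block. The other cationic carrier of the plasma membrane, Slc7a1, had 33.5 to 34.2 CPM against 32.6 to 36.8 CPM (log2 fold change 0.06, adjusted p = 0.733). The groups of Slc7a1 overlapped.

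The heavy chain Slc3a2, which pairs with several Slc7 carriers, had the highest level per kilobase of the class (275 CPM per kb). Its libraries overlapped, at 778.1 to 794.3 CPM against 738.3 to 782.0 CPM (log2 fold change -0.05, adjusted p = 0.609). Among its light chains, the large neutral amino acid transporter Slc7a5 had a log2 fold change of 0.13 (adjusted p = 0.635) and Slc7a8 had 0.22 (adjusted p = 0.441). Slc7a8 had 291.2, 359.5 and 337.8 CPM with IL-4 and 405.3, 327.1 and 415.3 CPM with IL-4+CGRP, so that replicate 2 of the CGRP group fell among the IL-4 libraries. The y+L light chains Slc7a7 (log2 fold change 0.16, adjusted p = 0.186) and Slc7a6 (0.08, adjusted p = 0.754) did not pass the test. Leaving out IL-4+CGRP replicate 3 moved Slc7a6 to -0.01.

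The glutamine and neutral amino acid carriers differed in sign. Slc38a2 (SNAT2), known to be induced when amino acids are short, had 74.9 to 85.0 CPM with IL-4 and 85.7 to 106.0 CPM with IL-4+CGRP. All CGRP libraries lay above all IL-4 libraries, replicate 2 only just (log2 fold change 0.29 ± 0.08, adjusted p = 0.0793). It passed with DESeq2 (adjusted p = 0.0488), with no count filter (0.000266) and with the length trend removed (0.0156). Slc38a2 missed the threshold with limma-voom, non-robust dispersions, the replicate number as a block and every other scaling tried. Slc1a5 (ASCT2) had 21.5, 22.0 and 20.4 CPM with IL-4 and 18.2, 19.2 and 17.6 CPM with IL-4+CGRP, with no overlap (log2 fold change -0.22 ± 0.08, adjusted p = 0.197). The lysosomal carrier Slc36a1 (log2 fold change 0.09, adjusted p = 0.617) and the taurine carrier Slc6a6 (0.05, adjusted p = 0.765, at 990.7 to 1179.2 CPM over all libraries) overlapped between groups.

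Genes that respond to a shortage of amino acids, among them Atf4, Asns and Trib3, gave a comparison for Slc7a11 and Slc38a2. Of the 20 listed, 18 were tested and none passed with edgeR, DESeq2 or limma-voom. At an unadjusted p under 0.05 there were 3, and the median log2 fold change was -0.04. Asns, the asparagine synthetase, had a log2 fold change of -0.26 (adjusted p = 0.241), and the transcription factor Atf4 had 0.04 (adjusted p = 0.766). Ddit3 and Phgdh of this list were lower past the threshold without IL-4+CGRP replicate 2. Genes of lysosomal amino acid sensing, beside which Slc66a1 and Slc36a1 act, numbered 24, all tested. Of these, 1 rose. Rragd, a Rag GTPase that helps bring mTORC1 to the lysosome, had 39.4, 44.5 and 40.5 CPM with IL-4 and 52.3, 50.2 and 49.7 CPM with IL-4+CGRP (log2 fold change 0.29 ± 0.06, adjusted p = 0.0276). The groups did not overlap. The call of Rragd ended without replicate 1 (adjusted p = 0.133) or 3 (0.166) of IL-4, or replicate 1 (0.165) or 3 (0.0746) of IL-4+CGRP. With IL-4+CGRP replicate 2 left out the list had 3 higher and 1 lower, where 13.8% of all tested genes passed.

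**Figure D2:**
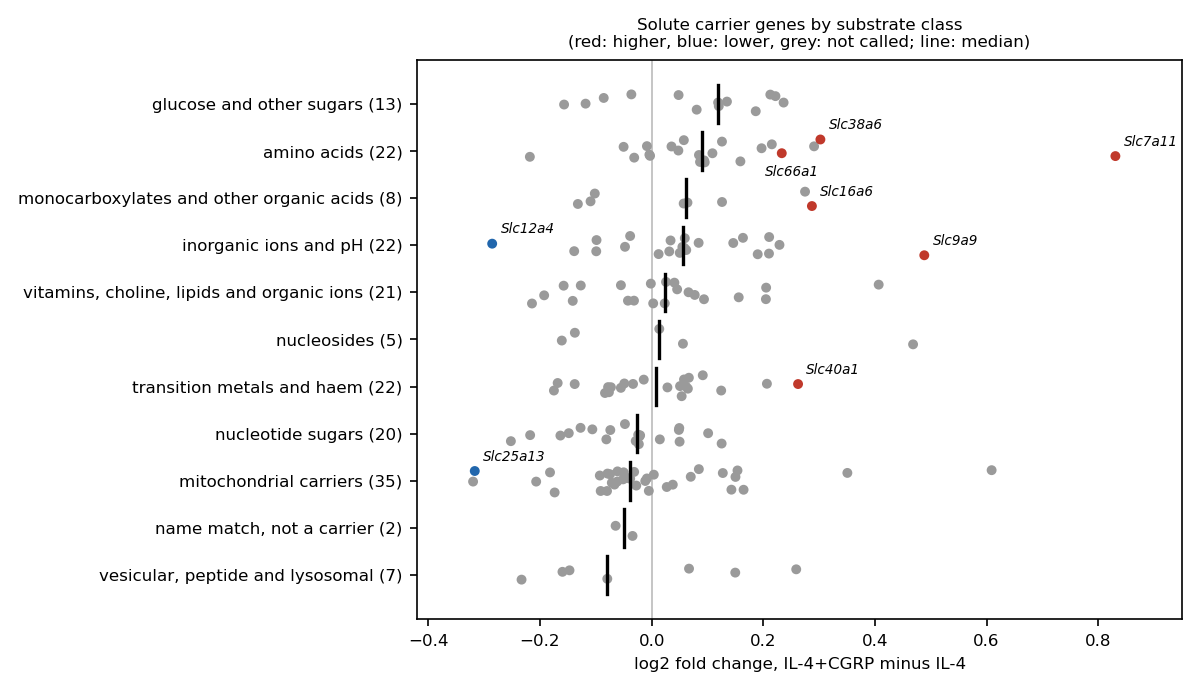
Log2 fold change (IL-4+CGRP minus IL-4, horizontal axis) of each of the 177 solute carrier genes, 1 point per gene, by substrate class with the number of genes in brackets and a line at the class median. Amino acid (median 0.09) and sugar carriers (0.12) sit to the right of 0 and mitochondrial carriers (-0.04) slightly to the left, and most called genes lie within 0.5 of 0.

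Of the 22 carriers of inorganic ions and pH, 1 rose and 1 fell, and 16 had a log2 fold change above 0 (median 0.06). Slc9a9 (NHE9), a sodium/hydrogen exchanger of endosomes, rose 1.40-fold. It had 57.3, 64.6 and 57.6 CPM with IL-4 and 86.2, 77.0 and 88.8 CPM with IL-4+CGRP. The lowest CGRP library was well above the highest IL-4 library (59.9 ± 4.13 against 84.0 ± 6.22 CPM; log2 fold change 0.49 ± 0.07, adjusted p = 0.00218). Slc9a9 passed under all 17 alternatives tried, each library left out in turn included, with log2 fold changes from 0.44 to 0.55 and adjusted p up to 0.0278.

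Slc12a4 (KCC1), a potassium-chloride cotransporter of cell volume control, fell 1.22-fold. It had 81.6, 71.8 and 78.7 CPM with IL-4 and 66.0, 61.1 and 63.3 CPM with IL-4+CGRP. The groups did not overlap (77.4 ± 5.03 against 63.4 ± 2.46 CPM; log2 fold change -0.29 ± 0.06, adjusted p = 0.0249). The call ended without IL-4 replicate 1 (adjusted p = 0.146), IL-4 replicate 3 (0.116) or IL-4+CGRP replicate 3 (0.0618). The related cotransporter Slc12a7 (KCC4), with the highest level per kilobase of the ion carriers, had 166.8 to 177.7 CPM with IL-4 and 192.3 to 201.8 CPM with IL-4+CGRP (log2 fold change 0.19 ± 0.05, adjusted p = 0.0658). Slc12a4 and Slc12a7 thus had opposite signs within 1 family. The sodium-potassium-chloride cotransporter Slc12a2 had 6.11 to 7.35 CPM over all libraries and a log2 fold change of 0.05 (adjusted p = 0.877), which became -0.04 without IL-4+CGRP replicate 1.

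Other ion carriers did not pass the test. The phosphate carrier Slc20a1 had 27.7 to 30.8 CPM with IL-4 and 30.9 to 35.5 CPM with IL-4+CGRP (log2 fold change 0.21, adjusted p = 0.19). The sulfate carriers Slc26a11 and Slc26a2, singled out after their values were seen, came close to the threshold. Slc26a11 had 52.9 to 56.6 CPM against 60.7 to 65.3 CPM (log2 fold change 0.23, adjusted p = 0.0515), and Slc26a2 had 64.0 to 66.7 CPM against 72.8 to 78.6 CPM (0.21, adjusted p = 0.0557). Neither gene's groups overlapped. Both passed with upper quartile factors or library totals alone as the scaling, with no count filter and with a filter at a mean count of 50. Neither passed with the DESeq2 test, limma-voom or non-robust dispersions. Without IL-4+CGRP replicate 2 the class had 6 higher and 1 lower, with Slc12a7, Slc20a1, Slc26a11 and Slc26a2 among those added to the higher. In that fit 13.8% of all tested genes passed (6.78% higher and 7.04% lower).

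Of the 22 carriers of transition metals and haem 1 rose, and the class median was a log2 fold change of 0.01 with 11 on each side of 0. Ferroportin, Slc40a1, the iron exporter of the plasma membrane, had 57.1, 54.2 and 57.6 CPM with IL-4 and 69.9, 61.7 and 71.0 CPM with IL-4+CGRP. All CGRP libraries lay above all IL-4 libraries, replicate 2 the least (56.3 ± 1.81 against 67.5 ± 5.08 CPM; log2 fold change 0.26 ± 0.07, 1.20-fold, adjusted p = 0.0477). This was the call nearest to the threshold. It ended with DESeq2 (adjusted p = 0.0663), limma-voom (0.0816) or non-robust dispersions (0.066), and without any 1 library other than IL-4+CGRP replicate 2 (0.145 to 0.233).

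The iron carriers of the phagosome and endosome overlapped between groups or moved little. Slc11a1 (NRAMP1), with the highest level per kilobase of the metal carriers (187 CPM per kb), had 426.6 to 455.5 CPM against 412.4 to 432.9 CPM (log2 fold change -0.05, adjusted p = 0.661). Slc11a2 (DMT1) had 100.4 to 103.6 CPM against 105.2 to 108.6 CPM (0.06, adjusted p = 0.588). The haem carrier Slc48a1 had 169.3, 174.0 and 168.0 CPM with IL-4 and 156.3, 149.6 and 149.0 CPM with IL-4+CGRP, with no overlap (log2 fold change -0.17 ± 0.05, adjusted p = 0.101). Slc48a1 passed as lower with the length trend removed (adjusted p = 0.035). The zinc exporter Slc30a1 had a log2 fold change of -0.18 (adjusted p = 0.212) and the zinc and iron importer Slc39a14 one of -0.07 (adjusted p = 0.763). None of the 10 Slc39 importers passed with edgeR, DESeq2 or limma-voom (1 at an unadjusted p under 0.05). Without IL-4+CGRP replicate 2, Slc30a1 (adjusted p = 0.0107) and Slc48a1 (0.0336) were lower past the threshold, and Slc40a1 was still higher.

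Among 23 other genes of metal handling, 18 were tested, 1 rose, none fell, and 12 had a log2 fold change under 0 (median -0.06). Bach1, a haem-sensing repressor known to act on the genes of ferroportin, ferritin and haem oxygenase, had 215.3, 215.1 and 212.1 CPM with IL-4 and 252.2, 252.5 and 258.0 CPM with IL-4+CGRP. The libraries of each group were nearly level and the groups were far apart relative to that spread (log2 fold change 0.25 ± 0.05, adjusted p = 0.00901). The call of Bach1 ended without replicate 2 (adjusted p = 0.0634) or 3 (0.101) of IL-4, or replicate 1 (0.0568) or 3 (0.0594) of IL-4+CGRP. In the ferritin light chain the library that stood apart differed from the other CGRP libraries. Ftl1 had 6904.7 to 8003.3 CPM with IL-4 and 5725.5, 7457.3 and 5704.2 CPM with IL-4+CGRP (log2 fold change -0.23, adjusted p = 0.505). Without that library the list had 2 higher (Bach1 and Tfrc) and 3 lower (Fth1, Ftl1 and Hmox2), where 13.8% of all tested genes passed.

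Of the 13 carriers of glucose and other sugars none passed with edgeR, DESeq2 or limma-voom, although the class had a median log2 fold change of 0.12 with 9 of 13 above 0. At an unadjusted p under 0.05 there were 6. Over all tested genes 15.8% had such a p and 49.2% a log2 fold change above 0. Summed CPM of the class did not rise, at 951.6 to 978.0 CPM with IL-4 and 931.7 to 952.0 CPM with IL-4+CGRP. Slc2a1 (GLUT1), the main glucose carrier of many cell types, had 31.0, 31.6 and 34.3 CPM with IL-4 and 30.8, 32.1 and 31.6 CPM with IL-4+CGRP. The groups of Slc2a1 overlapped fully (log2 fold change -0.04 ± 0.07, adjusted p = 0.835). Slc2a3 (GLUT3) had 6.15 to 7.09 CPM over all libraries (-0.09 ± 0.11, adjusted p = 0.767). The lysosomal family member Slc2a6 had 37.8 to 42.5 CPM against 43.9 to 47.5 CPM, with no overlap (0.19 ± 0.07, adjusted p = 0.179). The sugar phosphate carrier Slc37a2, a member of the family of glucose-6-phosphate exchangers with 211 CPM per kb, had 638.3, 654.9 and 646.7 CPM with IL-4 and 604.4, 583.4 and 599.4 CPM with IL-4+CGRP. It was lower in all CGRP libraries (-0.12 ± 0.04, adjusted p = 0.162). With the length trend removed Slc37a2 passed as lower (adjusted p = 0.0373) and Slc37a3 as higher. The class had 2 higher, Slc2a9 and Slc37a3, without IL-4+CGRP replicate 2.

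Of the 8 carriers of monocarboxylates and other organic acids 1 rose. Slc16a6, a monocarboxylate family member known to export ketone bodies, had 46.8, 51.5 and 46.3 CPM with IL-4 and 60.4, 56.2 and 59.6 CPM with IL-4+CGRP. The groups did not overlap (48.2 ± 2.87 against 58.8 ± 2.22 CPM; log2 fold change 0.29 ± 0.06, 1.22-fold, adjusted p = 0.026). In the GENCODE vM21 annotation (GRCm38) Slc16a6 overlaps Amz2 (mean count 624.7) and Arsg (113.7) on the other strand, and the sources used here do not state whether counting used the strand, so its reads may not be told apart from theirs. Its call ended without replicate 1 (adjusted p = 0.121) or 3 (0.167) of IL-4, or replicate 1 (0.151) or 3 (0.105) of IL-4+CGRP. The lactate exporter Slc16a3 (MCT4) had 14.4, 17.4 and 14.8 CPM with IL-4 and 18.9, 19.1 and 18.5 CPM with IL-4+CGRP (log2 fold change 0.27 ± 0.09, adjusted p = 0.16). Its CGRP libraries were nearly level and above every IL-4 library. Slc16a1 (MCT1) had 10.8 to 12.1 CPM against 9.78 to 10.9 CPM (-0.10, adjusted p = 0.675), and Slc16a7 (MCT2), highest per kilobase in the class, had 0.13 (adjusted p = 0.522).

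Partners of glucose and lactate carriage were read beside these carriers. Of 18 listed, 17 were tested, 3 rose and none fell, with a median log2 fold change of -0.01. Over all tested genes 2.32% rose and 1.54% fell. This list, like the other lists of partner genes, was chosen with earlier results of these data known, so its count is description only. Emb, embigin, the chaperone that brings monocarboxylate carriers to the plasma membrane, had 40.7, 38.6 and 40.1 CPM with IL-4 and 66.3, 65.7 and 64.0 CPM with IL-4+CGRP. Every library was within a few CPM of its group and the groups were far apart (log2 fold change 0.71 ± 0.06, adjusted p = 2.4e-05). Its relative basigin, Bsg, which serves Slc16a1 and Slc16a3, overlapped between groups (log2 fold change -0.08, adjusted p = 0.718). Tbc1d4 (AS160), which restrains the movement of GLUT4 vesicles, had 58.7, 61.4 and 61.0 CPM with IL-4 and 105.3, 90.5 and 104.8 CPM with IL-4+CGRP (0.73 ± 0.07, adjusted p = 7.73e-05). Hif1a, the hypoxia-inducible factor, had 83.2, 79.2 and 84.0 CPM with IL-4 and 108.2, 93.1 and 106.5 CPM with IL-4+CGRP (0.32 ± 0.06, adjusted p = 0.0169). In Tbc1d4 and Hif1a all CGRP libraries lay above all IL-4 libraries and replicate 2 was the lowest of them. The GLUT4 gene, Slc2a4, was not among the tested genes. Emb and Tbc1d4 passed under all 17 alternatives, while Hif1a missed the threshold without any 1 library other than IL-4+CGRP replicate 2 (adjusted p from 0.0594 to 0.127). Without that replicate, Bsg, Hk2, Hk3 and Ldha were lower past the threshold.

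**Figure D3:**
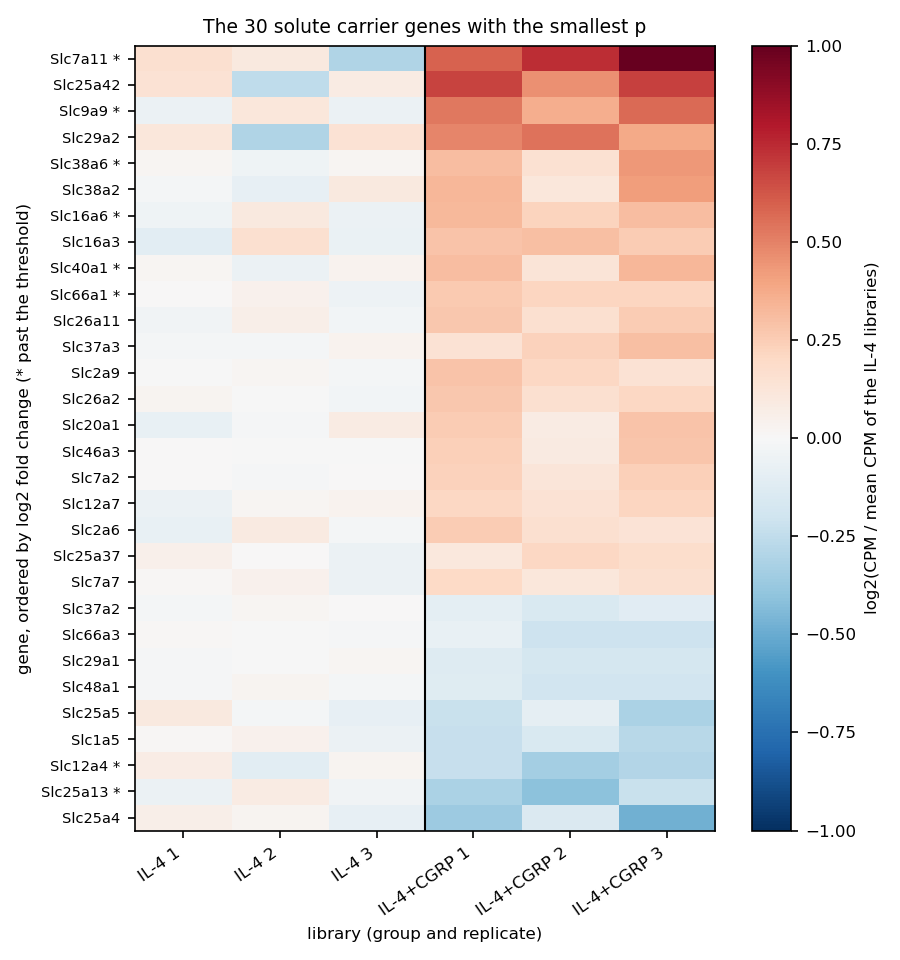
Log2 ratio of each library's CPM to the mean of the IL-4 libraries (colour scale, red above and blue below 0) for the 30 solute carrier genes with the smallest p, in rows ordered by log2 fold change, with the 6 libraries in columns and called genes marked by an asterisk. Slc7a11 and Slc9a9 are red in all 3 CGRP libraries, and in several rows, such as Slc38a2 and Slc40a1, IL-4+CGRP replicate 2 is the palest of the 3.

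Of the 35 mitochondrial carriers 1 fell and none rose, and 23 had a log2 fold change under 0 (median -0.04). Slc25a13 (citrin), the aspartate/glutamate carrier of the malate-aspartate shuttle, had 32.7, 36.0 and 33.2 CPM with IL-4 and 27.3, 25.5 and 29.1 CPM with IL-4+CGRP. The groups did not overlap (34.0 ± 1.79 against 27.3 ± 1.76 CPM; log2 fold change -0.32 ± 0.07, 1.25-fold lower, adjusted p = 0.0374). The call ended with library totals alone (adjusted p = 0.0613), limma-voom (0.0516) or non-robust dispersions (0.0522), and without IL-4 replicate 1 (0.0843), IL-4 replicate 2 (0.194), IL-4 replicate 3 (0.117) or IL-4+CGRP replicate 1 (0.14). Its paralog Slc25a12 (aralar), named after its values were seen, had 59.1 to 66.5 CPM against 60.2 to 61.9 CPM (-0.03, adjusted p = 0.861).

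The adenine nucleotide translocators, which exchange ADP for ATP, did not pass the test. Slc25a5, the most abundant mitochondrial carrier per kilobase (297 CPM per kb), had 421.2, 389.1 and 373.2 CPM with IL-4 and 337.3, 371.3 and 316.9 CPM with IL-4+CGRP. All CGRP libraries lay below all IL-4 libraries, replicate 2 by the least (log2 fold change -0.21 ± 0.07, adjusted p = 0.129). Slc25a4, named after its values were seen, had 44.0 to 48.5 CPM against 33.4 to 42.3 CPM (-0.32 ± 0.09, adjusted p = 0.065). With all libraries kept, Slc25a4 and Slc25a5 were both lower past the threshold with no count filter (adjusted p = 0.0056 for Slc25a5). Both were so again with the length trend removed (0.0379 for Slc25a5). Slc25a5 is known for near-identical processed pseudogenes, so the split of its reads is uncertain. The citrate carrier Slc25a1 (-0.06, adjusted p = 0.693) and the carnitine carrier Slc25a20 (-0.08, adjusted p = 0.745) overlapped between groups. The mitochondrial iron importer Slc25a37 (mitoferrin 1) had 49.5 to 53.4 CPM against 55.5 to 59.6 CPM (0.16, adjusted p = 0.177). Summed over the class, mitochondrial carriers had 1857.7, 1805.6 and 1771.7 CPM with IL-4 and 1708.1, 1793.5 and 1691.0 CPM with IL-4+CGRP, with replicate 2 again among the IL-4 libraries. Without it the class had 1 higher and 5 lower, among them Slc25a4 (lower), Slc25a5 (lower) and Slc25a20 (lower, adjusted p = 0.0481). Of all tested genes 6.78% were then higher and 7.04% lower.

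The remaining classes held no member past the threshold with edgeR, DESeq2 or limma-voom. The 7 vesicular, peptide and lysosomal carriers had a median log2 fold change of -0.08 and 3 at an unadjusted p under 0.05 (15.8% of all tested genes). Slc15a3, a lysosomal carrier of histidine and small peptides, was the most abundant member per kilobase (412 CPM per kb, where the median member had 11.5 CPM per kb). It had 941.3 to 947.7 CPM with IL-4 and 947.0 to 1034.9 CPM with IL-4+CGRP (0.07, adjusted p = 0.5), and in GENCODE vM21 it overlaps Tmem132a (mean count 2857.6) on the other strand. Its relative Slc15a4, known for its part in endosomal Toll-like receptor signalling, had a log2 fold change of -0.08 (adjusted p = 0.596).

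The 5 nucleoside carriers had a median of 0.01, with 3 at an unadjusted p under 0.05 (15.8% of all tested genes). Slc29a1 (ENT1), the equilibrative nucleoside carrier of the plasma membrane, had 41.5, 41.6 and 42.3 CPM with IL-4 and 38.2, 37.1 and 37.0 CPM with IL-4+CGRP. The groups did not overlap (log2 fold change -0.16 ± 0.06, adjusted p = 0.189). The lysosomal Slc29a3 (ENT3), at 271.0 to 324.6 CPM over all libraries, overlapped (0.01, adjusted p = 0.946) and changed sign with single libraries left out.

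Carriers of nucleotide sugars feed glycosylation in the Golgi apparatus and endoplasmic reticulum. Their class here was all 20 members of the Slc35 family, whatever the substrate of each. It had a median of -0.03 with 14 under 0 and 2 at an unadjusted p under 0.05. Slc35f6, the highest per kilobase, had 237.4 to 250.9 CPM over all libraries (-0.02, adjusted p = 0.862, and 0.01 with library totals alone). The deposited terms of Slc35f6 name lysosomes or endosomes and mitochondria, not the Golgi apparatus or endoplasmic reticulum. The 21 carriers of vitamins, choline, lipids and organic ions had a median of 0.02 and 3 at an unadjusted p under 0.05. The fatty acid carrier Slc27a1, the highest per kilobase among them, had 259.5 to 275.3 CPM against 265.2 to 292.5 CPM (0.05, adjusted p = 0.722). The lysosomal carriers Slc17a5 and Slc46a3 and the Slc35 member Slc35e1 were higher, and Slc35b1 was lower, without IL-4+CGRP replicate 2.

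Carriers outside the Slc nomenclature gave a further comparison. Of 39 listed, 33 were tested, 1 rose and 2 fell, with a median log2 fold change of -0.02. Cd36, the scavenger receptor that takes up long-chain fatty acids, had 687.2, 653.0 and 682.4 CPM with IL-4 and 578.2, 520.5 and 554.8 CPM with IL-4+CGRP (log2 fold change -0.29 ± 0.05, adjusted p = 0.00552). It passed under all 17 alternatives. Ucp2, a mitochondrial carrier of the same protein family as Slc25, had 667.9, 719.2 and 685.6 CPM with IL-4 and 582.7, 611.3 and 590.0 CPM with IL-4+CGRP (-0.22 ± 0.04, adjusted p = 0.019). The organic anion carrier Slco3a1 had a log2 fold change of 0.40 (adjusted p = 0.0111). None of the 3 genes overlapped between groups. The call of Ucp2 ended without replicate 2 (adjusted p = 0.129) or 3 (0.116) of IL-4, or replicate 1 (0.135) or 3 (0.0864) of IL-4+CGRP. That of Slco3a1 ended without replicate 1 (adjusted p = 0.0621) or 3 (0.0622) of IL-4, or replicate 1 (0.0604) or 3 (0.0637) of IL-4+CGRP. The list had 2 higher and 5 lower without IL-4+CGRP replicate 2, where 6.78% of all tested genes were higher and 7.04% lower.

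The deposited gene ontology terms placed the members by compartment, a grouping chosen after the values were seen and in which a gene may stand more than once. The 28 members whose terms name none of the compartments below, Slc12a4 among them, are left out. Of the 83 members with a plasma membrane term 5 rose and none fell (median log2 fold change 0.05, 51 above 0). Of 19 in lysosomes or endosomes 2 rose, Slc9a9 and Slc66a1, and none fell (median 0.05). Of 45 in the Golgi apparatus or endoplasmic reticulum 1 rose (median -0.02), and of 44 in mitochondria 1 fell (median -0.03, 29 under 0). Over all tested genes 2.32% rose and 1.54% fell, and over all members 3.39% rose and 1.13% fell. No difference between compartments was tested.

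The spread among replicates set what could be seen. The median coefficient of variation of a member was 4.61% over the IL-4 libraries and 5.48% over the IL-4+CGRP libraries, and 79 members had a mean count of at least 1000. Of the 8 changed members, 4 had IL-4+CGRP replicate 2 as the CGRP library nearest to the IL-4 mean, as had 67 of all 177 members, against 53 and 57 for the other 2 libraries.

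**Figure D4:**
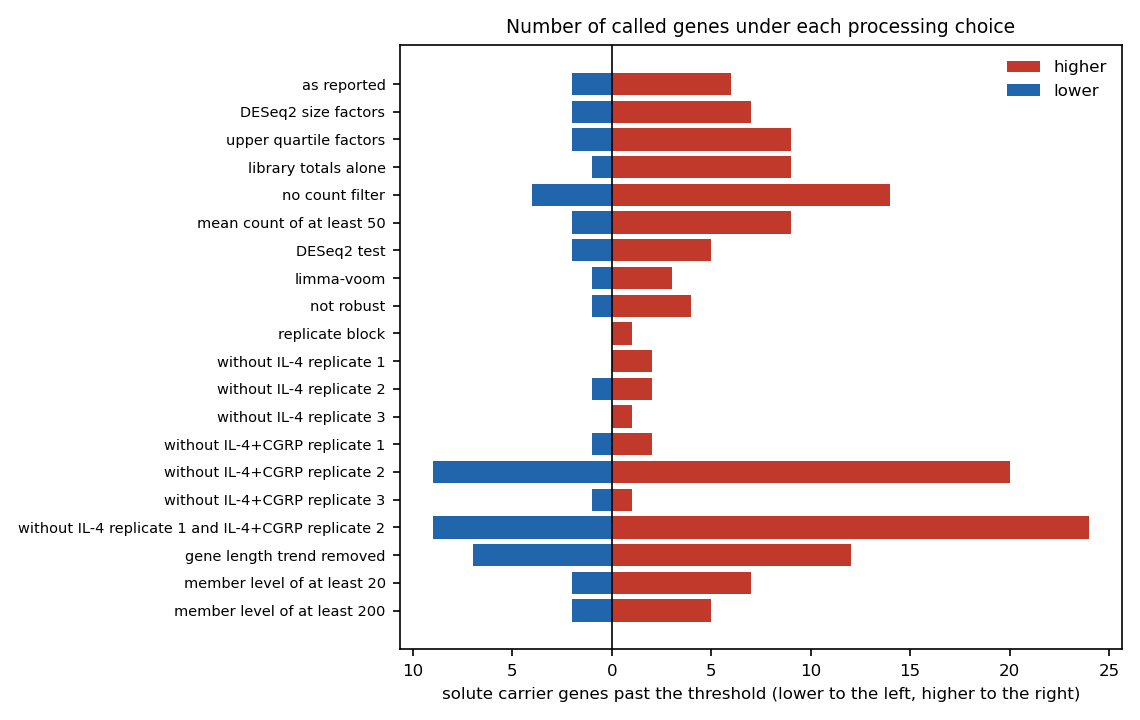
Number of solute carrier genes past the threshold (horizontal axis, lower to the left and higher to the right of 0) as reported and under each alternative processing choice. The reported count is 6 higher and 2 lower; it is 20 and 9 without IL-4+CGRP replicate 2, 12 and 7 with the gene length trend removed, and at most 3 in all when any other single library is left out.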

How the data were processed

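RNA of 6 libraries of mouse bone marrow-derived macrophages (3 with IL-4, 3 with IL-4 and CGRP) was prepared with a stranded mRNA kit, per the labels' protocols. The authors deposited 1 table of estimated counts per gene for the 6 libraries (23.3% to 26.6% of the values above 0 were not whole, tolerance 1e-06), with the authors' group means and a gene length. The submitters' processing notes name fastp, HISAT2, StringTie and GRCm39. Their versions and the counting step, annotation and strand setting were not given in the sources used here. Levels per kilobase use the deposited length, whose definition is not stated.

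Counts were rounded to whole numbers, filtered with filterByExpr by group (13260 genes, 99.91% of counts), scaled by TMM and tested with edgeR 4.0.16 (R 4.3.3) by a robust two-sided quasi-likelihood F test without covariates. P-values were adjusted over all tested genes by Benjamini-Hochberg, with a threshold of 0.05. The biological coefficient of variation was 8.6%. SE is the absolute log2 fold change over the square root of F. DESeq2 1.42.0 and limma 3.58.1 (voom) were alternatives. Rows without a gene name (525) were kept as genes of their own. No per-sample column was left unused (0).

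Named genes were all members past the threshold (up to 30), a fixed list of members of interest, the member with the highest level per kilobase in each class, and members of partner lists past the threshold. A member of interest is not reported here. The members, classes and lists were chosen with earlier results of these data known. Compartments and promoter motifs were chosen after the values were seen. The fit was tested on simulated data with known changes.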

Additional observations from a re-analysis of the deposited data

How the results depend on the processing

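Beside the reported 6 members higher and 2 lower (all genes: 307 and 204), fitting without a count filter gave 14 and 4 (584 and 434), limma-voom gave 3 and 1, and removing each library's gene length trend, chosen after seeing the data, gave 12 and 7 (473 and 384). Library totals alone gave 1 member lower, as did a dispersion fit that was not robust. Without IL-4 replicate 1 and IL-4+CGRP replicate 2 together there were 24 members higher and 9 lower (1066 and 1187 genes). Leaving out 1 library at a time gave 1 to 20 members higher and 0 to 9 lower (140 to 915 and 80 to 950 genes), with both upper ends from leaving out IL-4+CGRP replicate 2. The other counts of members stayed within 1.5 times. Some of these settings test fewer samples or other sets of genes, and otherwise the cause was not tested.

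Deviations of replicates with the same number correlated at r = -0.188, -0.182 and 0.13 across genes, and not every library correlated best with its own number. With 3 libraries per group and 1 that stood apart, these values cannot show whether equal numbers share mice or a batch. A fit with the replicate number as a block gave 1 member higher and 0 lower (176 and 86 genes).

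Of 917 values of 54 named genes under the alternatives, 798 kept direction and side of the threshold, 38 passed it newly, 72 no longer passed and 9 changed sign. The sign changes were all in genes that did not pass. They were Slc35f6 with library totals alone (0.01), Slc29a3 with the length trend removed (-0.02), and 5 genes with libraries left out: over those fits the log2 fold change ranged from -0.01 to 0.15 for Slc7a6, -0.01 to 0.12 for Slc6a6, -0.08 to 0.00 for Slc2a1, -0.04 to 0.10 for Slc12a2 and -0.04 to 0.09 for Slc29a3. Depth bears most on members near the level of 50 counts, where the SE of the log2 fold change reached 0.25 (Slc25a53).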

Other observations

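Of the 201 Slc symbols under the level, 29 passed the filter on low counts and 1 of these passed the test. Slc4a11, a membrane transporter of the bicarbonate carrier family, was singled out after its values were seen. It had 0.304, 0.469 and 0.334 CPM with IL-4 and 1.77, 1.38 and 1.13 CPM with IL-4+CGRP, a mean count of 20.3 over the 6 libraries. Every CGRP library lay above every IL-4 library (log2 fold change 1.94 ± 0.34 SE, 3.83-fold, adjusted p = 0.00731 with edgeR). It missed the threshold without IL-4 replicate 3 (adjusted p = 0.0591) or IL-4+CGRP replicate 1 (0.0549). The fatty acid carrier family member Slc27a3, also singled out after its values were seen, had 0.911, 0.939 and 0.834 CPM with IL-4 and 0.454, 0.275 and 0.451 CPM with IL-4+CGRP (log2 fold change -1.17 ± 0.34, adjusted p = 0.1), and its groups did not overlap. A gene this low passes the filter through the group where it is high, so these values carry no weight beyond their description.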
